A study of Mus musculus with 91 samples.

Results

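The livers described here came from an experiment in which mice carrying human nuclear receptors were given CITCO, a compound known as an activator of human CAR. The array titles put 5 livers in the group labelled CITCO hCAR/hPXR 28d and 5 in its labelled control, CMC hCAR/hPXR 28d, so that 10 of the 91 arrays of the series belong to it. Both groups were adult male mice of the strain labelled C57BL/hCAR/hPXR, on a C57BL/6J background. Mice of this kind carry human CAR and PXR in place of the mouse receptors, in treated and control animals alike, and the construct and the promoter that drives the human genes are not stated in the labels. The treated mice received 10 mg/kg CITCO daily by intraperitoneal injection for 28 days. The control mice were labelled carboxymethylcellulose (CMC), a suspending agent used as vehicle, at 0 mg/kg for 28 days, and the route by which they received it is not stated in the labels. For comparison, C57BL mice with their own receptors received the same dose of CITCO for 28 days, with CMC Co4 28d as their labelled control. Further C57BL mice received phenobarbital at 0.05% (w/v) in drinking water for 28 days, with water as control, and each of these groups also held 5 livers. RNA of whole liver was measured on an Affymetrix mouse array, and levels are log2 values from RMA, which corrects background, brings the arrays to one distribution and gives 1 value per probe set. All probe sets with a single gene symbol were used, which gave 18193 genes, and the medians of the 10 arrays lay between 5.19 and 5.26, with Pearson correlations between pairs of them from 0.9843 to 0.9929. The mice were assigned to groups at random, per the series' design, which cannot hold for the strain. The p-values rest on a spread between mice that was estimated per gene over all 19 groups of the series. That spread is not the one of these 10 livers alone.

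CAR (gene Nr1i3) and PXR (gene Nr1i2) are nuclear receptors of the liver that sense drugs and other foreign compounds. Once activated they enter or act in the nucleus as partners of the retinoid X receptor and switch on genes of drug oxidation, conjugation and export. Cyp2b10 is the classic target of CAR in mouse liver and Cyp3a11 that of PXR, and human and mouse CAR differ in the compounds that activate them. Phenobarbital activates CAR without binding it as a ligand.

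The mouse receptor genes were first checked against the labels. Nr1i3 had levels of 5.27, 5.87, 5.07, 5.30 and 4.87 in the CITCO livers, against 5.77, 5.25, 5.97, 6.22 and 6.08 in the CMC livers of hCAR/hPXR mice. The ranges overlapped, and the difference of −0.58 ± 0.227 did not pass (limma, adjusted p = 0.487). Both groups stood far below C57BL livers, since Nr1i3 differed by −3.47 ± 0.227 (log2) between CMC hCAR/hPXR and CMC Co4 livers (adjusted p = 2.27e-21). Nr1i2 had levels of 3.71, 4.33, 4.28, 4.01 and 4.09 in the CITCO livers, against 3.64, 3.73, 4.76, 3.73 and 4.26 in the CMC livers, and its strain difference was −3.48 ± 0.178 (adjusted p = 8.71e-28). The array reads the mouse transcripts, so the human receptors themselves were not measured. Hepatocyte markers, 21 of 25 measured, averaged 12.19 to 12.36 in the CITCO livers, against 12.21 to 12.54 in the CMC livers.

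CITCO changed 18 genes in hCAR/hPXR livers at an adjusted p below 0.05, and 14 of them rose, 0.077% of the genes tested, while 4 fell, 0.022%. At such shares most short gene lists would hold none, so a list below in which none passed says little about its members. The genes that rose were led by the cytochrome P450 genes Cyp2b10, 38.4-fold, Cyp2c55, 6.71-fold, and Cyp2c65, 2.95-fold. They also held Cyp2c50 and Cyp3a11, the carboxylesterase Ces2a, the glucuronosyltransferase Ugt2b35 and the glutathione transferase Gsta4. Rises outside drug metabolism were those of 4931406C07Rik, Smim14, Nr3c2, Nmt2, Meig1 and Mme, and the genes that fell were Reg3b, Il18bp, Hspb8 and Ropn1l. Before adjustment 1274 genes had p below 0.05, 716 higher and 558 lower, and the median difference over all genes was 0.0059. In 232 genes (1.28%) every CITCO liver was above every CMC liver, and in 135 (0.742%) every one was below. Only 6 of the 14 rises and 1 of the 4 falls reached 2-fold.

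CMC livers 3 and 4 stood apart from the other 3 control livers in many of these genes and in the acute phase genes described further on. Without these 2 livers, an alternative chosen after the data were seen, 2 genes passed in place of 18, Cyp2b10 at 5.39 (adjusted p = 2.14e-11) and Cyp2c55 at 2.34 (adjusted p = 0.00408). This alternative leaves 3 control livers, and each of the 18 differences without them is given beside its gene, as are those of many, though not all, other genes named. With 1 liver left out at a time, Cyp2b10, Cyp2c55, Cyp2c65, Cyp2c50, Ces2a and 4931406C07Rik passed in all 10 cases. Smim14 lost its call without CMC liver 3, Nr3c2 without CMC liver 4, Cyp3a11 without either of them, and Ugt2b35 without CMC liver 4 or CITCO liver 5. Reg3b, Il18bp, Meig1, Mme and Nmt2 lost it in 4 cases, Gsta4 in 5, Hspb8 in 7 and Ropn1l in 8, each time with CMC livers 3 and 4 among the cases. Differences then ranged from 5.10 to 5.52 for Cyp2b10, from 0.89 to 1.37 for Gsta4, from 0.98 to 1.46 for Mme and from −2.54 to −1.06 for Reg3b. In a fit to the 10 arrays alone, where the spread comes from these livers only, 8 of the 18 genes passed, namely Cyp2b10, Cyp2c55, Cyp2c50, Ces2a, Ugt2b35, 4931406C07Rik, Meig1 and Hspb8.

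**Figure D1:**
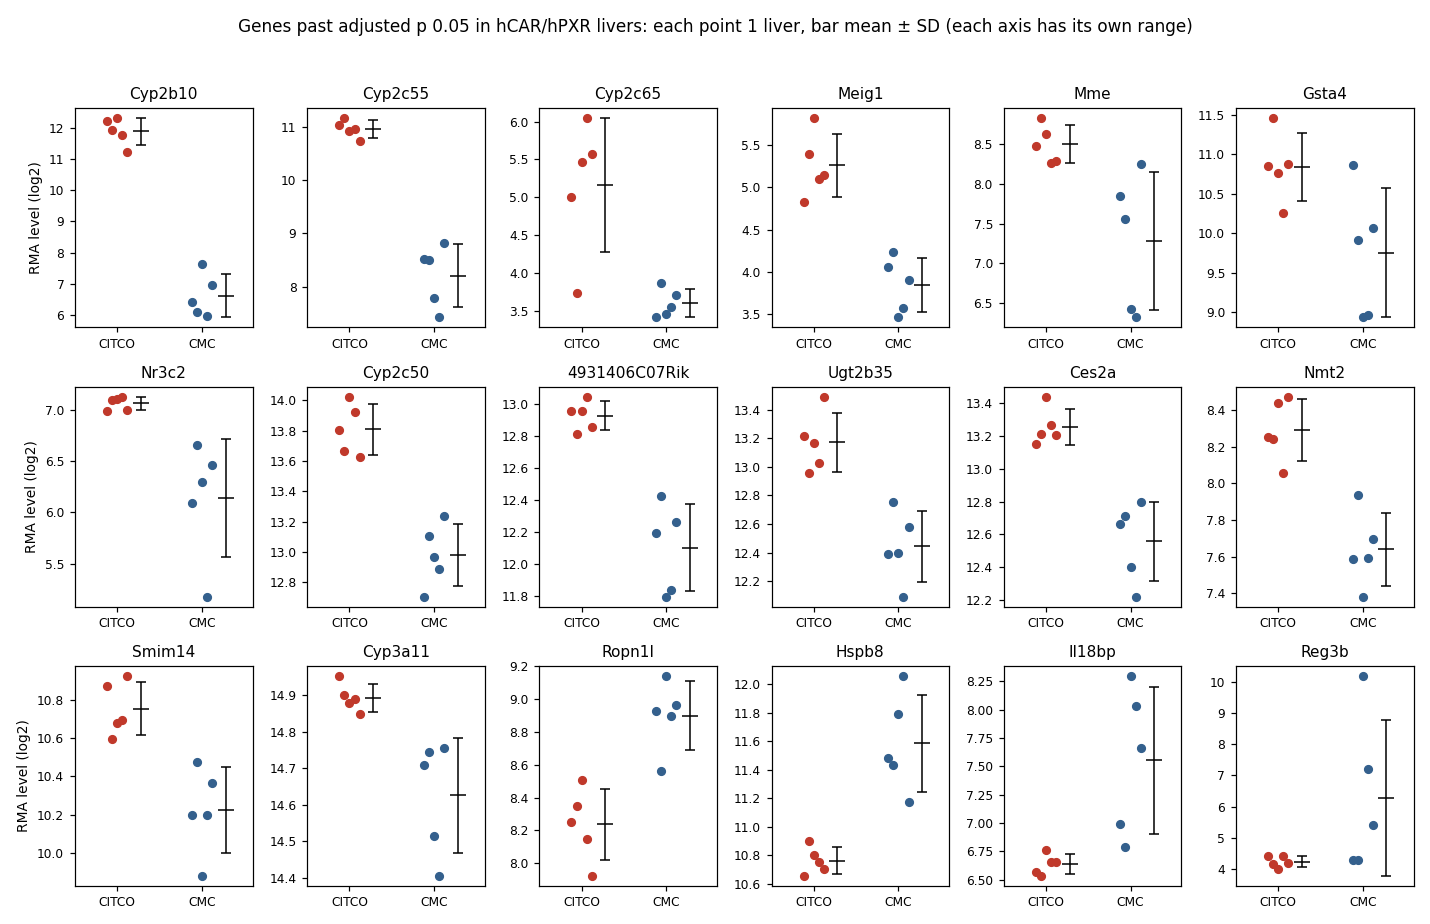
RMA level (log2) of the 18 genes past the threshold in each hCAR/hPXR liver, CITCO in red and CMC in blue, with mean ± SD in black; axes differ between genes. All 5 CITCO livers lie apart from all 5 CMC livers in 15 of the 18 genes, and the groups overlap in Cyp2c65, Gsta4 and Reg3b.

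The starts of the 5 P450 genes that rose are shown because these genes moved together. RefSeq windows of build GRCm38.p6 run from 250 bases before to 50 bases after the gene start, read 5′ to 3′ in the direction of the gene. The windows lie at chr7:25897408-25897707 (plus strand) for Cyp2b10, chr19:39006769-39007068 (plus strand) for Cyp2c55, chr19:39060756-39061055 (plus strand) for Cyp2c65, chr19:40089429-40089728 (plus strand) for Cyp2c50 and chr5:145879805-145880104 (minus strand) for Cyp3a11. Capitals mark matches, on either strand, to AGGTCA or AGTTCA, elements that nuclear receptors of this class bind in pairs, and to TATAAA, the core of a TATA box.
Cyp2b10: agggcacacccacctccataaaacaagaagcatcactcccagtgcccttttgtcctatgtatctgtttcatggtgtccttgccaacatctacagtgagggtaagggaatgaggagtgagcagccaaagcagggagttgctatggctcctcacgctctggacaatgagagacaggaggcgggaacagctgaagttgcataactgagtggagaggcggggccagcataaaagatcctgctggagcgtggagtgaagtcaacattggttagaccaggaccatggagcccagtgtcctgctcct
Cyp2c55: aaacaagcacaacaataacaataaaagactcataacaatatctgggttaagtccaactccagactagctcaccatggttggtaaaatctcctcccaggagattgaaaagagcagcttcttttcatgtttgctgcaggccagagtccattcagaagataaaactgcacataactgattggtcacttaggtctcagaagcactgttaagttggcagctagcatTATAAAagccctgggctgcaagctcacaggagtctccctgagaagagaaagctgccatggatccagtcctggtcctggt
Cyp2c65: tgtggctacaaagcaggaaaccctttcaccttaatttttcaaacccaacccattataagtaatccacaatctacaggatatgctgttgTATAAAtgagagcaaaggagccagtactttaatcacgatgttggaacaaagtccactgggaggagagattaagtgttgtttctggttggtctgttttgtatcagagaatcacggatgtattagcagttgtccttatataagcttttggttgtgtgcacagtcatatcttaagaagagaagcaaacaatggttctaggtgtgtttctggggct
Cyp2c50: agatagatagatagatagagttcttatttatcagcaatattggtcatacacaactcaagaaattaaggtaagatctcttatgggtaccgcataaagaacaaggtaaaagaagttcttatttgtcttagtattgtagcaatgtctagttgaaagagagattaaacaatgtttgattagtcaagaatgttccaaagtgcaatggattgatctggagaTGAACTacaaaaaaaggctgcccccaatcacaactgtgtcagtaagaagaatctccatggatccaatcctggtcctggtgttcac
Cyp3a11: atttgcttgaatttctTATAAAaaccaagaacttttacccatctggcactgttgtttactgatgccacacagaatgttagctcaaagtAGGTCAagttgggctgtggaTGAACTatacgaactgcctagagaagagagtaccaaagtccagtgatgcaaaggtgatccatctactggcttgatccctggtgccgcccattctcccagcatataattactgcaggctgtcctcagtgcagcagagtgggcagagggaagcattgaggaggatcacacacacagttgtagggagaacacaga
Cyp3a11 held AGGTCA 162 bases and the other-strand form of AGTTCA 142 bases before its start, and TATAAA 234 bases before it. Cyp2c50 held the other-strand form of AGTTCA 35 bases before its start. Cyp2b10, the gene with the largest rise, held none of the 3 motifs in this window, and the enhancer known for its response to phenobarbital lies farther upstream. Cyp2c55 held TATAAA 29 bases before its start, and Cyp2c65 held it 162 bases before. Over all 32851 windows, AGGTCA was found in 16.3%, AGTTCA in 13.99% and TATAAA in 13.6%, and 27.7% held at least 1 of AGGTCA and AGTTCA. Of the 27 windows of the 17 genes past the threshold that had one, 11 held AGGTCA or AGTTCA (40.7%). The matches did not overlap each other. Such a match is a description of the letters and not a measured site.

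The Cyp2b genes encode P450 enzymes that oxidise barbiturates and many other drugs. Cyp2b10 stood at 12.22, 11.92, 12.30, 11.75 and 11.23 in the CITCO livers, against 6.42, 6.10, 7.65, 5.97 and 6.97 in the CMC livers. Every CITCO liver was above the highest control, CMC liver 3. The difference was 5.26 ± 0.467 (SE of the fit), with a 95% interval from 4.33 to 6.19 (limma, adjusted p = 7.38e-14). The other 2 probe sets of Cyp2b10 gave 6.21 and 6.37, and members of this family share sequence, so single members are uncertain. Cyp2b9, a female-biased member, had levels of 4.32, 7.82, 4.33, 4.50 and 4.24 in the CITCO livers, against 3.93, 4.12, 4.11, 3.93 and 3.95 in the CMC livers. CITCO liver 2 alone reached this high level, the other 4 lay just above the controls, and the difference of 1.04 ± 0.635 did not pass (adjusted p = 0.792). Cyp2b13 at −0.04 and Cyp2b19 at −0.07 did not pass either (−0.15 and −0.14 without CMC livers 3 and 4), so 1 of 4 measured Cyp2b genes rose.

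The Cyp2c enzymes oxidise drugs, steroids and unsaturated fatty acids. Of 15 listed Cyp2c genes 10 were measured, 3 rose and none fell, against 0.077% and 0.022% of all genes tested. The median difference of the 10 was 0.61. Cyp2c55, which turns arachidonic acid into hydroxylated products, had levels of 11.03, 11.17, 10.91, 10.95 and 10.73 in the CITCO livers, against 8.52, 8.51, 7.78, 7.42 and 8.81 in the CMC livers. The 5 CITCO livers lay within a narrow band above all controls, and the difference was 2.75 ± 0.372 (adjusted p = 1.25e-06). Cyp2c65, a P450 better known from the intestine, had levels of 5.00, 3.74, 5.46, 6.05 and 5.58 in the CITCO livers, against 3.42, 3.87, 3.47, 3.55 and 3.72 in the CMC livers. CITCO liver 2 stayed among the controls while the other 4 were clearly above them, and the difference was 1.56 ± 0.299 (adjusted p = 0.00392). Cyp2c50 was already near the top of the scale, with 13.80, 13.67, 14.02, 13.92 and 13.62 in the CITCO livers, against 12.70, 13.11, 12.96, 12.89 and 13.24 in the CMC livers. Its groups did not overlap, and it rose by 0.83 ± 0.165 (adjusted p = 0.00642). Without CMC livers 3 and 4 the differences were 1.5 for Cyp2c65 (adjusted p = 0.197) and 0.79 for Cyp2c50 (adjusted p = 0.289).

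Cyp2c54, the neighbour of Cyp2c50 in the RefSeq annotation, had levels of 12.98, 12.91, 13.28, 13.26 and 12.93 in the CITCO livers, against 11.58, 12.02, 11.97, 11.53 and 12.27 in the CMC livers. These groups did not overlap either, yet the difference of 1.20 ± 0.283 missed the threshold (adjusted p = 0.0574). Cyp2c37 differed by 0.89 ± 0.318 (adjusted p = 0.422) and Cyp2c29, an abundant hepatic enzyme, by 0.39 ± 0.109 (adjusted p = 0.183). The remaining 4 members, Cyp2c38, Cyp2c39, Cyp2c68 and Cyp2c70, had differences of −0.16, −0.24, −0.37 and −0.07, none past the threshold. Cyp2c38 stood at −0.26 without CMC livers 3 and 4, and Cyp2c70 changed sign, at 0.05. The median of all 10 was 0.55 without CMC livers 3 and 4.

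Cyp3a11, the main mouse counterpart of the human drug-oxidising enzyme CYP3A4, rose by 0.27 ± 0.0514, 1.2-fold (adjusted p = 0.00392). Its levels were 14.95, 14.90, 14.88, 14.89 and 14.85 in the CITCO livers, against 14.71, 14.74, 14.51, 14.40 and 14.76 in the CMC livers. The groups did not overlap, but all 10 livers were near the upper end of the array's scale, which reached 15.21 in these arrays, where folds can be compressed. CMC livers 3 and 4 were lowest, and without them the difference was 0.16 (adjusted p = 0.737). Cyp3a44 at 0.41, Cyp3a25 at 0.22, Cyp3a13 at −0.21 and Cyp3a16 at −0.03 did not pass, so 1 of 5 measured Cyp3a genes rose. None of 17 further genes passed, made up of other P450 genes of foreign compound metabolism and of Cyb5a, Cyb5b and Cyb5r3, which pass electrons through cytochrome b5, and their median difference was 0.16. Without CMC livers 3 and 4, Cyp3a44 stood at 0.23, Cyp3a25 at 0.14, Cyp3a13 at 0.19 and Cyp3a16 at 0.03, so that Cyp3a13 and Cyp3a16 changed sign.

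**Figure D2:**
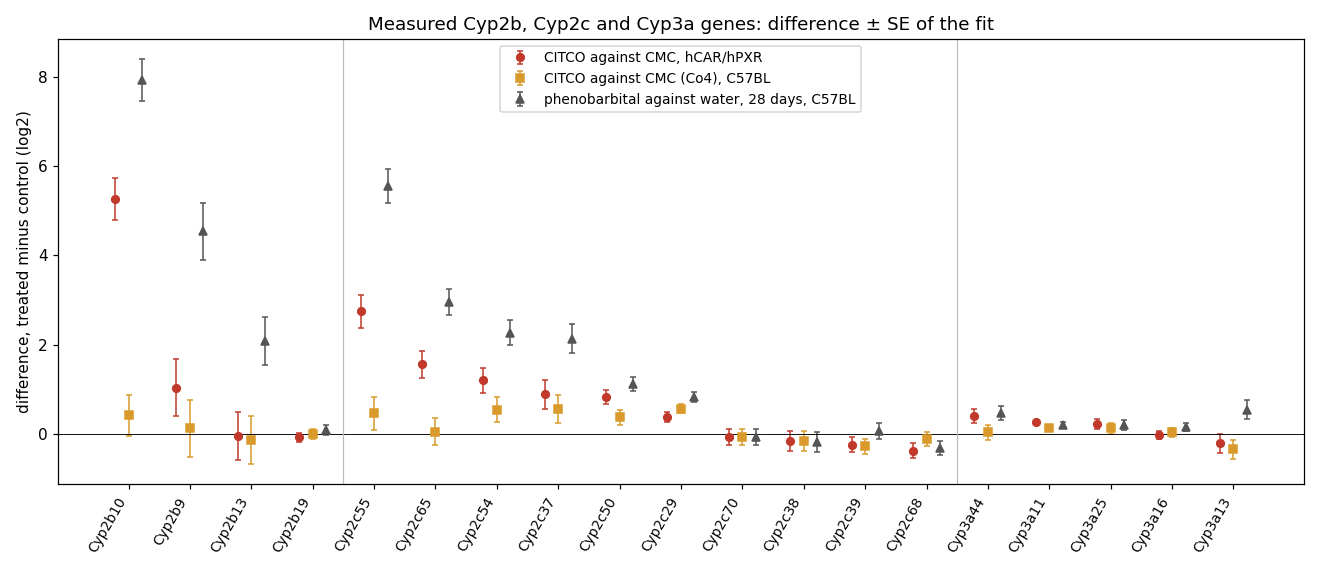
Difference (log2) ± SE of the fit between treated and control livers for the 19 measured Cyp2b, Cyp2c and Cyp3a genes, for CITCO in hCAR/hPXR mice (red circles), CITCO in C57BL mice (orange squares) and phenobarbital in C57BL mice (grey triangles). Cyp2b10 reached 5.26 with CITCO in hCAR/hPXR livers, 0.42 with CITCO in C57BL livers and 7.93 with phenobarbital.

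Enzymes that hydrolyse esters or attach sugars and glutathione make up the next steps of drug metabolism. Ces2a, a carboxylesterase that cleaves ester drugs, had levels of 13.15, 13.21, 13.44, 13.27 and 13.21 in the CITCO livers, against 12.66, 12.71, 12.40, 12.22 and 12.80 in the CMC livers. The groups were separate, and Ces2a rose by 0.70 ± 0.121 (adjusted p = 0.000729), or 0.53 without CMC livers 3 and 4 (adjusted p = 0.33). It was the 1 gene to pass among 35 measured genes of aldehyde, carbonyl and ester metabolism, whose median difference was 0.11. Ces2b, a related esterase, stood at 1.08 ± 0.358 (adjusted p = 0.36), or 0.63 without CMC livers 3 and 4, and the aldo-keto reductase Akr1c19 at 0.75 ± 0.22 (adjusted p = 0.208).

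Glucuronosyltransferases join glucuronic acid to drugs, bilirubin and steroids. Ugt2b35 had levels of 13.22, 12.96, 13.17, 13.03 and 13.49 in the CITCO livers, against 12.39, 12.75, 12.40, 12.09 and 12.58 in the CMC livers. No CITCO liver was below a control, and the rise was 0.73 ± 0.147 (adjusted p = 0.00768), or 0.60 without CMC livers 3 and 4 (adjusted p = 0.44). All 12 measured genes of the glucuronidation list, which holds these transferases and the donor-making genes Ugdh and Ugp2, had positive differences, from 0.06 to 1.22 with a median of 0.32, while 51.8% of all genes tested were positive. Only Ugt2b35 passed, and Ugt2b38 at 1.22 ± 0.665 (adjusted p = 0.745), Ugt2b37 at 0.97 ± 0.364 (adjusted p = 0.456) and Ugt2b1 at 0.67 ± 0.19 (adjusted p = 0.183) did not. Without CMC livers 3 and 4 the list median was 0.23, Ugt2b38 stood at 0.56, Ugt2b37 at 0.66 and Ugt2b1 at 0.35. Close members of the family may share signal.

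Glutathione transferases couple reactive compounds to glutathione. Gsta4, which detoxifies products of lipid peroxidation, had levels of 10.85, 11.46, 10.76, 10.25 and 10.88 in the CITCO livers, against 10.87, 9.92, 8.93, 8.96 and 10.07 in the CMC livers. CMC liver 1 lay within the treated range and CMC livers 3 and 4 were lowest. Gsta4 passed at 1.09 ± 0.235 (adjusted p = 0.0153), and without those 2 livers the difference was 0.56 (adjusted p = 0.822). Gsta2 was likewise lowest in CMC livers 3 and 4, with 10.35, 11.80, 10.56, 9.71 and 10.43 in the CITCO livers, against 11.52, 9.69, 7.77, 7.55 and 9.52 in the CMC livers, and did not pass (1.36 ± 0.382, adjusted p = 0.183). Without those 2 livers its difference was 0.33. Gstm3 had 12.61, 12.86, 12.55, 12.43 and 12.41 in the CITCO livers, against 12.27, 11.41, 10.46, 11.30 and 11.56 in the CMC livers. Its groups did not overlap, but the difference of 1.17 ± 0.326 did not pass (adjusted p = 0.176), and it was 0.82 without CMC livers 3 and 4. Over 21 measured transferases 1 rose, and the median was 0.11, or 0.06 without CMC livers 3 and 4.

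None of 26 drug and bile salt transporters passed, and their median difference was 0.13. Abcc4, an exporter of conjugated drugs and bile acids, had levels of 6.95, 8.91, 7.33, 6.26 and 6.61 in the CITCO livers, against 6.04, 5.62, 6.44, 6.10 and 5.64 in the CMC livers. CITCO liver 2 was highest by far and CITCO liver 4 lay inside the control range (difference 1.24 ± 0.344, adjusted p = 0.169). Abcc3, another basolateral exporter, had 11.61, 11.67, 11.84, 11.18 and 11.26 in the CITCO livers, against 11.09, 10.98, 10.59, 10.63 and 11.05 in the CMC livers. These values did not overlap, with a difference of 0.64 ± 0.195 that did not pass (adjusted p = 0.235). Of 14 sulfation genes, the sulfotransferases and the donor-making Papss1 and Papss2, none passed. Sult1c2 had the largest difference at 0.76 ± 0.257, or 0.28 without CMC livers 3 and 4. The list median of 0.03 was −0.02 with CMC liver 4 alone left out. None of 13 heme genes passed (median −0.08). Among 27 NRF2 antioxidant genes the 1 that passed was Gsta4 (median 0.12).

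Other genes that rose included 4931406C07Rik, named in the files by its clone, with 12.95, 12.81, 12.95, 13.04 and 12.86 in the CITCO livers, against 12.20, 12.42, 11.80, 11.84 and 12.26 in the CMC livers. All treated livers were above all controls, and the rise was 0.82 ± 0.126 (adjusted p = 3.71e-05), or 0.63 without CMC livers 3 and 4 (adjusted p = 0.151). Nr3c2, the gene of the mineralocorticoid receptor, had 6.99, 7.09, 7.11, 7.13 and 7.0 in the CITCO livers, against 6.09, 6.65, 6.30, 5.18 and 6.47 in the CMC livers. The treated livers were nearly level, CMC liver 4 was far below the other controls, and Nr3c2 rose by 0.93 ± 0.185 (adjusted p = 0.00642). Without CMC liver 4 alone the difference was 0.69 and did not pass, and without CMC livers 3 and 4 the difference was 0.66.

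Mme encodes neprilysin, a membrane peptidase, and had levels of 8.48, 8.83, 8.63, 8.26 and 8.29 in the CITCO livers, against 7.85, 7.56, 6.43, 6.32 and 8.24 in the CMC livers. CMC liver 5 almost reached the lowest treated liver, and CMC livers 3 and 4 were lowest. Mme rose by 1.22 ± 0.262 (adjusted p = 0.0153), but the difference was 0.61 without those 2 livers and 0.64 with the mean of its 2 probe sets, and neither passed. Meig1, known for its role in sperm formation, rose by 1.41 ± 0.299 with levels of 4.83, 5.40, 5.82, 5.10 and 5.15 in the CITCO livers, against 4.06, 4.23, 3.46, 3.57 and 3.90 in the CMC livers (adjusted p = 0.0138). Its groups were separate but low on the scale, and the difference was 1.20 without CMC livers 3 and 4. Smim14, a small membrane protein gene, rose by 0.53 ± 0.101 (adjusted p = 0.00392) and Nmt2, which attaches myristate to proteins, by 0.65 ± 0.137 (adjusted p = 0.0138). Smim14 had 10.87, 10.60, 10.68, 10.69 and 10.92 in the CITCO livers, against 10.20, 10.48, 9.88, 10.20 and 10.36 in the CMC livers. Nmt2 had 8.25, 8.24, 8.44, 8.06 and 8.47 in the CITCO livers, against 7.59, 7.94, 7.38, 7.59 and 7.70 in the CMC livers. Both genes were separate between the groups by a narrow gap, and Nmt2 stood at 0.16 with the mean of its 4 probe sets, which did not pass. The other probe sets of Smim14 gave 0.23 and 0.24 and did not pass. Without CMC livers 3 and 4, Smim14 stood at 0.41 and Nmt2 at 0.55, and neither passed.

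Reg3b, an antibacterial lectin and the largest of the 4 falls, had levels of 4.41, 4.15, 4.01, 4.42 and 4.18 in the CITCO livers, against 4.28, 4.29, 10.19, 7.21 and 5.41 in the CMC livers. CMC livers 3, 4 and 5 were above every treated liver, while CMC livers 1 and 2 lay in the treated range. Its difference was −2.04 ± 0.432 (adjusted p = 0.0138), and −0.42 without CMC livers 3 and 4 (adjusted p = 0.894). Il18bp, which neutralises the cytokine interleukin 18, had 6.57, 6.53, 6.76, 6.66 and 6.66 in the CITCO livers, against 6.99, 6.79, 8.30, 8.03 and 7.67 in the CMC livers. The highest treated liver and the lowest control nearly touched, the difference was −0.92 ± 0.195 (adjusted p = 0.0138), and it was −0.51 without the 2 control livers. Hspb8, a small heat shock protein gene, fell by 0.83 with levels of 10.65, 10.90, 10.80, 10.75 and 10.70 in the CITCO livers, against 11.48, 11.43, 11.79, 12.06 and 11.17 in the CMC livers (adjusted p = 0.0378). Ropn1l, a sperm flagellum gene, fell by 0.66, with 8.25, 8.35, 8.51, 8.15 and 7.92 in the CITCO livers, against 8.92, 8.56, 9.14, 8.90 and 8.97 in the CMC livers (adjusted p = 0.0379). For these last genes the groups did not overlap, and without CMC livers 3 and 4 the differences were −0.60 for Hspb8 and −0.58 for Ropn1l. Both calls were lost with arrays centred on their medians. Hspb8 also lost its call with the mean of its probe sets. Ropn1l lost it when every probe set was tested, in the fit to the 10 arrays alone and with a replicate block.

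**Figure D3:**
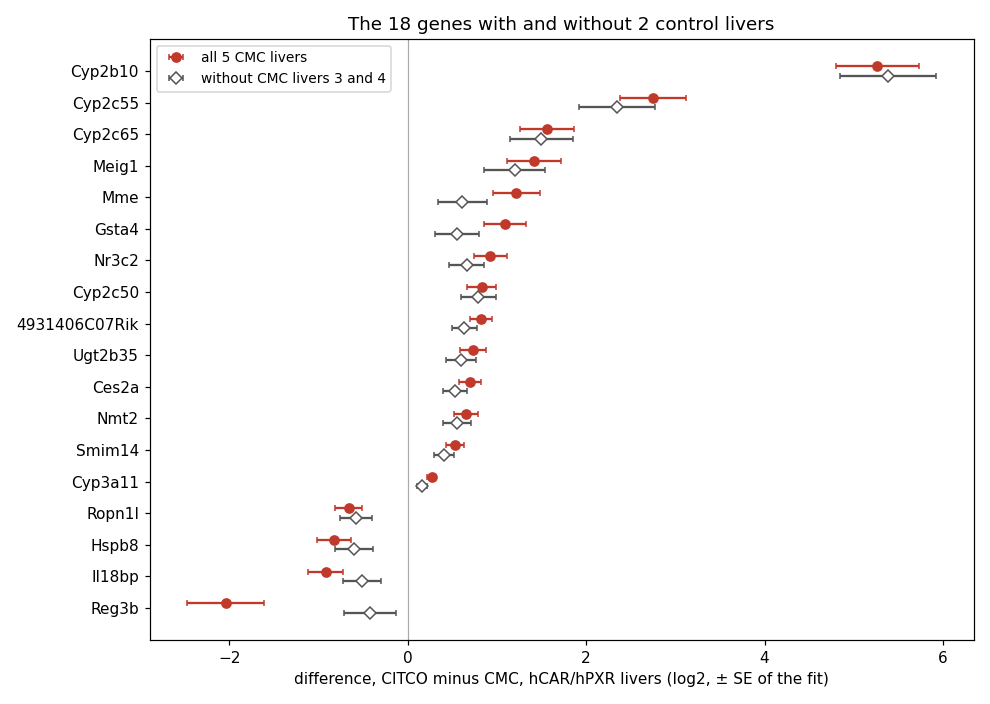
Difference (log2) ± SE of the fit between CITCO and CMC hCAR/hPXR livers for the 18 genes, with all 5 CMC livers (red circles) and without CMC livers 3 and 4 (open diamonds). Cyp2b10 stood at 5.26 and 5.39, Cyp2c55 at 2.75 and 2.34, and Reg3b at −2.04 and −0.42.

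The acute phase genes, which the liver switches on in inflammation, stood lower in CITCO than in CMC livers without passing the test. Of 34 measured members 33 had negative differences, 8 had all CITCO livers below all CMC livers, where 0.742% of all genes tested did, and the median was −0.48. None passed after adjustment. The list mean per liver was 11.50, 11.28, 11.12, 11.50 and 11.37 in the CITCO livers, against 11.79, 11.84, 12.54, 12.81 and 11.78 in the CMC livers. Even the lowest control mean was above every treated mean, and CMC livers 3 and 4 were highest. Lcn2, which withholds iron from bacteria, had 11.54, 9.66, 9.84, 11.57 and 10.36 in the CITCO livers, against 11.98, 12.81, 14.11, 13.86 and 13.76 in the CMC livers. The groups were separate with a wide spread in both, and the difference was −2.71 ± 0.979 (adjusted p = 0.43), or −2.25 without CMC livers 3 and 4.

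Serpina3n, a protease inhibitor, had 10.26, 9.47, 9.94, 10.45 and 9.97 in the CITCO livers, against 10.51, 10.97, 13.12, 13.05 and 11.49 in the CMC livers. CMC livers 3 and 4 exceeded the other controls, and the difference of −1.81 ± 0.437 did not pass (adjusted p = 0.0718). It was −0.97 without those 2 livers. Saa3, Socs3 and the metallothionein gene Mt2 stood at −1.95 (adjusted p = 0.183), −2.02 (adjusted p = 0.195) and −2.71 (adjusted p = 0.274). Without CMC livers 3 and 4 Saa3 stood at −1.48, Socs3 at −1.19 and Mt2 at −1.99, and the list median was −0.21. In C57BL mice, with controls of their own, the list median was also negative at −0.50 for CITCO minus CMC Co4. The list means of those livers ran from 10.75 to 11.40 with CITCO and from 11.61 to 12.71 in Co4, against 10.24 to 10.66 in the water controls.

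Markers of other liver cells were read beside these genes, and in whole liver fewer cells of a type and less RNA per cell cannot be told apart. Of 20 Kupffer cell and macrophage markers none passed, 18 had negative differences, and the median was −0.41, or −0.15 without CMC livers 3 and 4. Their mean was 7.17, 7.15, 7.48, 7.08 and 7.80 in the CITCO livers, against 7.27, 7.07, 8.20, 8.13 and 8.08 in the CMC livers. CMC livers 3, 4 and 5 were above all treated livers, and CMC livers 1 and 2 were not. Marco, a scavenger receptor of macrophages, had 7.41, 6.32, 7.64, 6.85 and 7.98 in the CITCO livers, against 7.61, 7.37, 9.90, 9.94 and 8.19 in the CMC livers. It differed by −1.36 ± 0.503 (adjusted p = 0.449), or −0.48 without CMC livers 3 and 4. It was highest in these 2 livers, the livers highest in acute phase genes and lowest in Gsta4 and Mme, and the part of these cells in the results was not tested.

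Stellate cell and fibroblast markers averaged 7.85 to 8.33 in the CITCO livers, against 7.24 to 7.90 in the CMC livers. None of 17 passed, 13 were positive, and the median was 0.21. Acta2, the smooth muscle actin of activated stellate cells, had 10.74, 9.30, 6.96, 7.95 and 8.54 in the CITCO livers, against 8.42, 6.33, 7.93, 5.69 and 7.24 in the CMC livers. The groups overlapped, and the difference of 1.57 ± 0.508 did not pass (adjusted p = 0.324). Markers of T, B and NK cells, with genes of antigen presentation, averaged 6.05 to 6.38 in the CITCO livers, against 5.96 to 6.45 in the CMC livers. Neutrophil and red cell markers averaged 5.45 to 5.65 in the CITCO livers, against 5.50 to 5.96 in the CMC livers. None of 19 lymphocyte and 14 neutrophil and red cell markers passed.

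**Figure D4:**
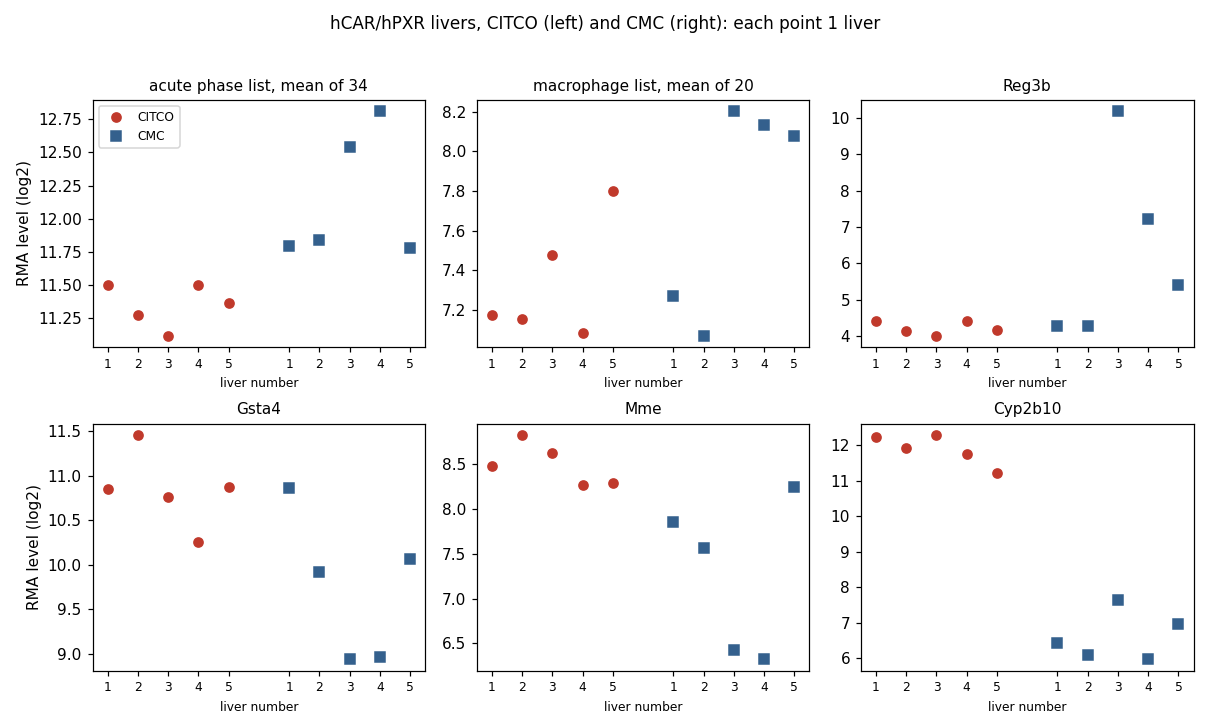
RMA level (log2) in each hCAR/hPXR liver, CITCO in red on the left and CMC in blue on the right, for the means of the acute phase and macrophage lists and for Reg3b, Gsta4, Mme and Cyp2b10. CMC livers 3 and 4 are highest in the acute phase mean and lowest in Gsta4 and Mme, while Cyp2b10 is higher in every CITCO liver.

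Genes of fatty acid oxidation and other targets of PPARa gave 31 positive differences of 39 with a median of 0.14, and none passed. Acot1, a thioesterase of fatty acyl-CoA, had 7.65, 8.33, 7.95, 7.04 and 7.19 in the CITCO livers, against 6.46, 6.94, 5.80, 5.75 and 6.43 in the CMC livers. Its groups did not overlap, and the difference was 1.35 ± 0.451 (adjusted p = 0.365). Vnn1, which releases cysteamine, stood at 1.22 ± 0.348 (adjusted p = 0.184), also without overlap. Of 27 genes of sterol and fatty acid synthesis 22 were negative, the median was −0.19, and none passed. Fdps, an early enzyme of isoprenoid synthesis, stood at −0.86 ± 0.308 (adjusted p = 0.422) and Nsdhl, a later enzyme of cholesterol synthesis, at −0.54 ± 0.15 (adjusted p = 0.166). They stood at −0.50 and −0.31 without CMC livers 3 and 4.

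Cell cycle genes are followed in such studies because CAR activators enlarge the rodent liver. None of 35 passed, and their median of −0.03 changed sign, to 0.03, with CMC liver 1 left out. Ccnd1, the cyclin that opens the cycle, had 10.02, 10.27, 9.36, 9.75 and 9.74 in the CITCO livers, against 9.76, 9.61, 8.37, 7.97 and 9.34 in the CMC livers. CMC livers 3 and 4 were lowest, the groups overlapped, and the difference was 0.82 ± 0.393 (adjusted p = 0.688), or 0.26 without those 2 livers. Gadd45b, a stress gene known as a CAR target, differed by 0.43 ± 0.293 (adjusted p = 0.844), with 7.49, 8.83, 7.71, 7.74 and 7.64 in the CITCO livers, against 7.63, 7.39, 7.27, 7.40 and 7.58 in the CMC livers. CITCO liver 2 was highest and the other 4 overlapped the controls or lay just above them. Other probe sets of Gadd45b gave 0.77 and −0.20 and did not pass. Meg3, an imprinted RNA of the Dlk1-Dio3 cluster, differed by 0.05 ± 0.181 (adjusted p = 0.991), or 0.15 without CMC livers 3 and 4. Its other probe sets ran from −0.19 to 0.44, and none passed.

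Among genes that did not pass but whose groups were separate, those with the largest positive differences outside the families above were Cnmd at 1.25, the protease gene Prss23 at 1.01, Cyp26a1, which degrades retinoic acid, at 0.96, the zinc importer gene Slc39a4 at 0.95 and the collagen gene Col6a3 at 0.86. The largest negative ones besides Lcn2, Saa3 and Serpina3n were the chemokine gene Cxcl1 at −1.97 (−1.19 without CMC livers 3 and 4), the serum amyloid genes Saa2 at −1.66 and Saa1 at −0.78, Lgalsl at −0.89, the kinase gene Camk2b at −0.77, Dpy19l3 at −0.69 and the proteasome gene Psmb9 at −0.66. Cyp26a1 had 9.22, 9.73, 10.10, 9.39 and 8.94 in the CITCO livers, against 7.60, 8.82, 8.87, 8.64 and 8.67 in the CMC livers. CMC liver 1 was lowest, and the other 4 controls lay just below the treated livers (adjusted p = 0.382).

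**Figure D5:**
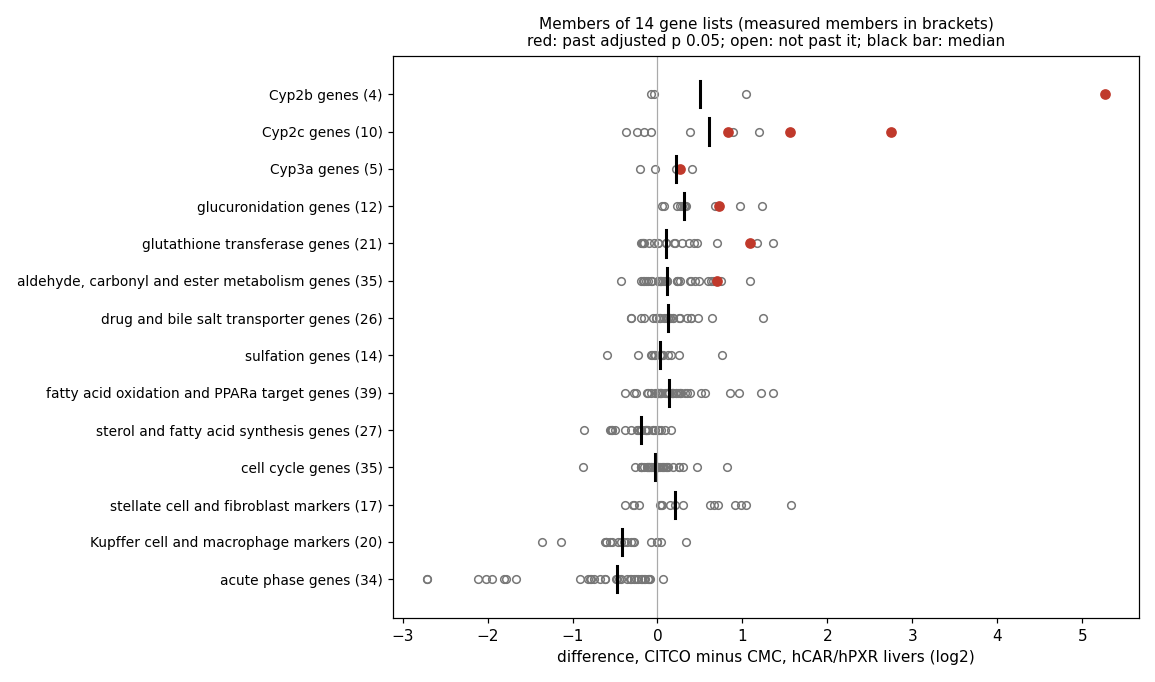
Differences (log2, CITCO minus CMC, hCAR/hPXR livers) of the measured members of 14 gene lists, with genes past the threshold in red, others as open circles and the list median as a black bar. The medians run from −0.48 for acute phase genes to 0.61 for Cyp2c genes, against 0.0059 over all genes tested.

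The same dose of CITCO was set against livers with the mouse receptors. In C57BL livers Cyp2b10 averaged 6.03 ± 0.138 with CITCO and 5.61 ± 0.416 in Co4 (SD, n = 5 each), a difference of 0.42 that did not pass. The hCAR/hPXR response exceeded the C57BL response by 4.84 ± 0.66 (adjusted p = 3.03e-06), and Cyp2b10 was the 1 gene (0.0055% of those tested) whose responses differed at this threshold. At an unadjusted p below 0.05, 367 of the 18193 genes tested differed, which is below the share of 0.05 that chance alone would give. For Cyp2c55 the difference of responses was 2.28, with a 95% interval from 1.24 to 3.33, and did not pass (adjusted p = 0.255). Cyp2c65 differed by 1.56 in hCAR/hPXR and 0.05 in C57BL livers, and Cyp2c50 by 0.83 in hCAR/hPXR and 0.37 in C57BL livers. The only gene past the threshold with CITCO in C57BL livers (0.0055%) was Cyp2c29, at 0.57 (adjusted p = 0.0265), against 0.39 in hCAR/hPXR livers. All 14 genes that rose in hCAR/hPXR livers had positive differences in C57BL livers, of which Mme had 0.78 and Gsta4 0.55. None of the 4 genes that fell had a positive difference there, where 53.1% of all genes tested had one. These differences come from other controls than those of the hCAR/hPXR mice.

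The strains also differed with the vehicle alone, where strain and cohort cannot be told apart. In CMC hCAR/hPXR livers 13 genes were higher (0.0715%) and 10 lower (0.055%) than in Co4 livers, and Nr1i3 and Nr1i2 were among the lower ones. Tomm40l, which follows Nr1i3 in the RefSeq annotation and serves protein import into mitochondria, averaged 8.95 ± 0.294 in CMC hCAR/hPXR livers and 8.05 ± 0.135 in Co4 livers (SD, n = 5 each), a difference of 0.90 ± 0.122 (limma, adjusted p = 5.28e-07). Another probe set of Tomm40l went the other way, with a mean of 4.03 in CMC hCAR/hPXR livers against 5.37 over all 91 arrays. The direction for this gene is therefore uncertain. Nnt, a mitochondrial transhydrogenase gene with a deletion known in the C57BL/6J substrain, averaged 11.15 ± 0.0941 in CMC hCAR/hPXR livers and 10.15 ± 0.172 in Co4 livers (SD, n = 5 each), a difference of 1.01 ± 0.147 (limma, adjusted p = 4.61e-06). It averaged 11.31 ± 0.115 in the water controls, so that the C57BL cohorts themselves differed in it. These genes were chosen after their values were seen. Ces2a and Cyp2c29 were also higher in CMC hCAR/hPXR than in Co4 livers, by 0.52 ± 0.121 (adjusted p = 0.041) and 0.60 ± 0.109 (adjusted p = 0.00142). Cyp7a1, the rate-limiting enzyme of bile acid synthesis, was higher by 2.01 ± 0.409 (adjusted p = 0.0082) and differed by −0.28 ± 0.409 between CITCO and CMC hCAR/hPXR livers (adjusted p = 0.963).

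CITCO in hCAR/hPXR livers was then set against 28 days of phenobarbital in C57BL livers, which have other controls, another vehicle and another route. Phenobarbital raised 104 genes (0.572%) and lowered 72 (0.396%). Of the 14 genes that rose with CITCO 9 also rose with phenobarbital, 64.3% of the CITCO list and 8.65% of the phenobarbital list. They were 4931406C07Rik, Ces2a, Cyp2b10, Cyp2c50, Cyp2c55, Cyp2c65, Cyp3a11, Gsta4 and Meig1. Mme, Nmt2, Nr3c2, Smim14 and Ugt2b35 were not called with phenobarbital, at 0.13, 0.07, 0.20, −0.02 and 0.48. None of the 4 genes that fell with CITCO passed as lower with phenobarbital, as 0.396% of all genes tested did. Of these 4 genes 1 had a positive difference with phenobarbital and the others had negative ones. Cyp2b10 averaged 11.88 ± 0.428 in CITCO hCAR/hPXR livers and 13.57 ± 0.12 in phenobarbital livers (SD, n = 5 each). Over all 19 groups of the series its mean in CITCO hCAR/hPXR livers ranked 4, below both phenobarbital groups and 1,4-dichlorobenzene.

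In the signed difference of responses, CITCO minus phenobarbital, 10 genes (0.055%) were higher and 12 (0.066%) lower. A gene can be higher here because phenobarbital lowered it, without a larger change with CITCO. Without CMC livers 3 and 4, 13 of these 22 genes kept their call. Cyp2c55 rose under both, and its CITCO response was smaller, with a difference of −2.81 ± 0.526 (adjusted p = 0.00315). For Cyp2b10 the difference was −2.67 ± 0.66 and did not pass (adjusted p = 0.0672). Gstm3 differed by 1.17 with CITCO and 3.33 with phenobarbital, a difference of responses of −2.16 ± 0.461 (adjusted p = 0.0146). Gstm2 showed −0.17 with CITCO and 1.54 with phenobarbital (−1.72 ± 0.29, adjusted p = 0.000491). Akr1d1, a steroid reductase of bile acid synthesis, showed −0.40 with CITCO and 1.09 with phenobarbital (−1.49 ± 0.249, adjusted p = 0.000491). Gstm2 and Akr1d1 had negative differences with CITCO, and that of Gstm2 was 0.04 without CMC livers 3 and 4. Meg3 showed 0.05 with CITCO and 1.38 with phenobarbital (−1.33 ± 0.256, adjusted p = 0.00409). In the other direction Acot1 showed 1.35 with CITCO and −1.51 with phenobarbital (2.87 ± 0.637, adjusted p = 0.0264). Gpd2, a mitochondrial glycerophosphate dehydrogenase, showed 0.40 with CITCO and −0.70 with phenobarbital (1.11 ± 0.261, adjusted p = 0.0486). Acot1 and Gpd2 had opposite signs under the 2 agents, as had Gstm2 and Akr1d1. The other genes whose CITCO response was below that of phenobarbital included Ggt6, Sult1d1, Pnliprp1, Cpe and Psen2, with differences of responses of −1.26, −1.18, −1.13, −0.97 and −0.95. Those above it included Adgrv1, Fitm2, Tmed5, Cebpg, Zfp131 and Kpna1, with 1.27, 0.78, 0.79, 0.74, 0.63 and 0.58. Their CITCO differences were only 0.50, 0.37, 0.20, 0.20, 0.22 and 0.23, so all of them had negative differences with phenobarbital. Signs were also opposite for Ggt6, Sult1d1 and Psen2, at −0.66, −0.23 and −0.56 with CITCO and positive with phenobarbital. None of these other genes, below or above, passed for CITCO in hCAR/hPXR livers itself. Cpe stood at 0.20 there, while another probe set of Cpe stood at 1.80 ± 0.572 and did not pass either. Among the families, phenobarbital raised 8 of 21 glutathione transferases and 6 of 10 Cyp2c genes, where CITCO in hCAR/hPXR livers raised 1 and 3. Of all genes tested, phenobarbital raised 0.572% and CITCO in hCAR/hPXR livers 0.077%. A mark in the titles of the phenobarbital arrays, "(2)", is not explained in the sources used here.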

How the data were processed

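The authors deposited log2 values of 45037 probe sets on 91 arrays, summarised with RMA per the submitters' processing notes, and no genome build is named in the sources used here. GEO's platform annotation gave 34945 probe sets a single symbol, 932 several and 9160 none. Each of the 18193 genes was read from the probe set of highest average level across the 91 arrays, 9010 genes having more than 1. A means model of 19 groups with 72 residual degrees of freedom was fitted with limma 3.58.1 in R 4.3.3, with a trended prior, and two-sided p-values were adjusted by Benjamini-Hochberg over all genes. The fitting step was tested on simulated data. Errors beside differences are SEs of that fit, and the number of arrays limits the precision.

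Genes were named by rule: every gene past the threshold, the receptor genes and 3 P450 markers, all Cyp2b, Cyp2c and Cyp3a genes, some of the largest differences in many of the lists described, the largest differences without overlap that did not pass, and the genes that differed between strains or from phenobarbital, passing over 1843 clone names in the last kinds. The groups and gene lists were chosen with earlier results of these data known. Alternatives were the fit to the compared groups alone, no trend, genes above the median level, the mean of a gene's probe sets, every probe set, array weights, centred arrays, a replicate block and leaving out each liver.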

Additional observations from a re-analysis of the deposited data

Results flagged for a closer look

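Single livers stood far from the other 4 of their group in 11 of 264 groups of 5 examined, over 94 genes and 38 gene lists, by Dixon's criterion, which chance meets in about 1 in 20 groups. CITCO liver 2 was the highest of its group in Cyp2b9 at 7.82, in Cyp2c68 at 12.75, in Gadd45b at 8.83 and in the mean of the growth arrest, apoptosis and p53 target genes at 7.94. Prss23 was highest in CITCO liver 1 at 8.17, the mean of the heme synthesis and breakdown genes was highest in CITCO liver 3 at 10.25, and Cyp2g1 was lowest in CITCO liver 5 at 7.10. Among the controls, CMC liver 2 was highest in Ugt2b37 at 6.59 and in Fitm2 at 9.07. CMC liver 1 was lowest in Cyp26a1 at 7.60 and in the mean of the perivenous genes at 10.33.

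The Cyp2b10 response to CITCO differed between the strains, since the hCAR/hPXR response exceeded the C57BL response by 4.84 on the log2 scale (limma, adjusted p = 3.03e-06). Outside the genes tested, 10092 probe sets with several symbols or none were looked at as well. Of these 1 passed, the unnamed probe set 1443137_at, which averaged 7.47 in the CITCO livers and 3.95 in the CMC livers, a difference of 3.52 ± 0.405 (limma, adjusted p = 3.99e-09). All 5 CITCO livers were above all 5 CMC livers in it.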

How the results depend on the processing

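CITCO against CMC in hCAR/hPXR livers gave 18 genes, and 37 with array weights. Leaving out 1 liver gave 7 to 32, with 11 without CITCO liver 2, 32 without CMC liver 1, 8 without CMC liver 3 and 7 without CMC liver 4. Leaving out CMC livers 3 and 4, chosen after seeing the data, gave 2. Cyp2b10, Cyp2c55, 4931406C07Rik, Cyp2c50, Cyp2c65 and Ces2a kept their calls whichever single liver was left out. Fitted to the 10 arrays alone, 17 genes passed and 8 of them were among the 18. The difference between strains gave 1 gene, with 2 in the fit to its own groups, 3 with array weights and 1 to 2 with 1 liver left out (2 without CITCO liver 3 of hCAR/hPXR mice). The difference from phenobarbital gave 22 genes, with 152 in the fit to its own groups, 64 among genes above the median level, 530 with array weights and 12 (without water liver 2) to 50 (without CMC hCAR/hPXR liver 2) with 1 liver left out. Without CMC livers 3 and 4 that difference gave 24 genes, and only 13 of them were among the 22. CMC hCAR/hPXR against Co4 gave 23 genes, with 15 in the fit to its own groups, 14 with the mean of a gene's probe sets, 70 with array weights, and 35 without CMC livers 3 and 4. With 1 liver left out it gave 12 (without CMC hCAR/hPXR liver 3) to 35 (without liver 4), and 14 without liver 5. The cause of these shifts was not tested.

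Livers with the same number in the 2 hCAR/hPXR groups did not deviate together, with correlations from -0.116 to 0.0818, so the numbers do not pair them. With the number as a replicate block, 16 genes passed for CITCO, 6 of them among the 18, 2 for the difference between strains, 119 for that from phenobarbital and 26 for CMC hCAR/hPXR against Co4. None of the 18 genes changed sign under these settings. Of the genes named in the Results that did not pass, Cyp3a13, Cyp3a16, Cyp2c70 and Gstm2 turned positive without CMC livers 3 and 4, at 0.19, 0.03, 0.05 and 0.04, and Cyp2b13, Meg3, Nr1i2 and Pnliprp1, all close to 0, changed sign when some single livers were left out, as did Cyp2c70 and Cyp3a16. Some list members not named there also changed sign. Levels near the lower end of the scale, such as Cyp2c65 and Meig1 in CMC livers, may lie near the arrays' background.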
